A study of Mus musculus with 11 samples.

Results

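Puerarin-treated diabetic mice were compared with non-diabetic vehicle controls by RNA sequencing of isolated glomeruli, the filtering units of the kidney. The libraries were chosen by their titles: 3 of puerarin-treated db/db mice (S144, 2 and 3) and 4 of vehicle-treated db/m mice (S184, S185, 2 and 3), 7 of the 11 in the series. The db/db mice carry the db allele on both copies of Lepr, the leptin receptor gene, and received 20 mg/kg puerarin per day by gavage in 5% DMSO. The db/m littermates carry 1 db allele and received 5% DMSO alone. Treatment ran for 6 weeks from 10 weeks of age in both groups, and the labels describe male mice. For the strain, the labels disagree, with C57BL/6J in the strain field and the BKS background in the treatment protocol. The remaining 4 libraries, from db/db mice given 5% DMSO, are used for side-by-side values and for the estimate of spread. Genotype and drug differ together between the compared groups, so the share of each in a difference cannot be told apart from this contrast.

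Puerarin is an isoflavone glycoside of kudzu root. Mice without a working leptin receptor overeat, become obese and diabetic, and develop albuminuria with enlarged glomeruli. A glomerulus is a tuft of capillaries lined by fenestrated endothelium, held together by mesangial cells and covered by podocytes, whose foot processes are joined by the slit diaphragm. Gnai1 is an inhibitory G protein alpha subunit that lowers cyclic AMP made by adenylyl cyclase, and the series' title names its product as a binding partner of puerarin.

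The libraries held 35369703 to 44244460 counts each, and values are given as CPM, with library sizes adjusted by TMM factors. Titles took 2 forms, with an S number in 5 and a group tag in 6, and this name form was a term of the fit. What the name form stands for cannot be read from the sources used here, and the labels do not say whether a library came from 1 animal. The podocyte genes Nphs1 and Synpo measured 1239 to 1567 and 1449.5 to 1528 CPM over the puerarin libraries and 1209.5 to 1499.5 and 1354 to 1859 CPM over the db/m libraries, so these defining podocyte markers of a glomerulus were abundant in both groups. Tubule markers were also present: the 27 proximal tubule genes summed to 3163 to 4053 CPM with puerarin and 2422 to 12070 CPM in db/m. The 26 genes of the loop, distal tubule and collecting duct summed to 3378 to 12230 and 4608 to 13820 CPM. In puerarin S144, Xist measured 0.873 CPM and the Y-linked gene Ddx3y 73.2 CPM, but puerarin 2 and 3 had 528 and 819 CPM of Xist and 3.06 and 0.909 CPM of Ddx3y. Those 2 libraries do not match the male label, while the 4 db/m libraries had 0.519 to 0.821 CPM of Xist and 50.3 to 77.2 CPM of Ddx3y. Genes of chromosomes X and Y were therefore kept out of the rankings, and differences among the S-number libraries, which leave those 2 libraries out, are given beside the main genes.

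Puerarin-treated db/db glomeruli had higher transcript levels of the single vascular genes Adm, Gpihbp1, Fabp4 and Sele. Also higher were S100a4, S100a6 and Lgals1, of calcium- and galactoside-binding proteins, and Tnnt2, Ankrd1 and Fbln5, contractile or elastic fibre genes. Levels of Dkk3, Foxc2, Adra2c, Mc4r and Slc22a7 were lower. Of 13734 genes tested, 25 passed an adjusted p of 0.05 in edgeR's quasi-likelihood test (0.182%), 20 higher (0.146%) and 5 lower (0.0364%). None of the 460 genes of chromosomes X and Y passed (63 had an unadjusted p under 0.05). At an unadjusted p under 0.05 there were 1410 genes (10.3%), and 47.7% of all genes had a higher fitted value with puerarin. The changes ran from 1.63-fold to 3.83-fold for the higher genes. For all 25 genes the values of the groups did not overlap, which held for 7.65% of all genes (3.73% higher, 3.92% lower). Where groups do not overlap, the difference must have the same sign within both name forms, so that shared sign adds nothing further. Their adjusted p-values lay between 0.042 and 0.0455, close to the threshold, and leaving out 1 library changed the count. Leaving aside chromosomes X and Y, it was 0 without vehicle S152 or S153, db/m S184, S185 or 3, or puerarin 2 (1108 to 1417 genes at an unadjusted p under 0.05), 1 without puerarin S144 or db/m 2, 2 without puerarin 3, and 40 and 73 without vehicle 3 and 1. On chromosomes X and Y, 5 genes passed without puerarin S144 (Xist higher, and Ddx3y, Eif2s3y, Kdm5d and Uty lower) and 1 without vehicle 1 (Gabra3, higher), named after their values were seen. Without puerarin 2 and 3, only puerarin S144 was left in its group. The 20 higher genes then had log2 fold changes of 0.72 to 2.07 and the 5 lower genes of -3.09 to -0.60. These genes were chosen from a fit that includes S144 and have groups that do not overlap. The kept sign and size are therefore no separate support.

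**Figure D1:**
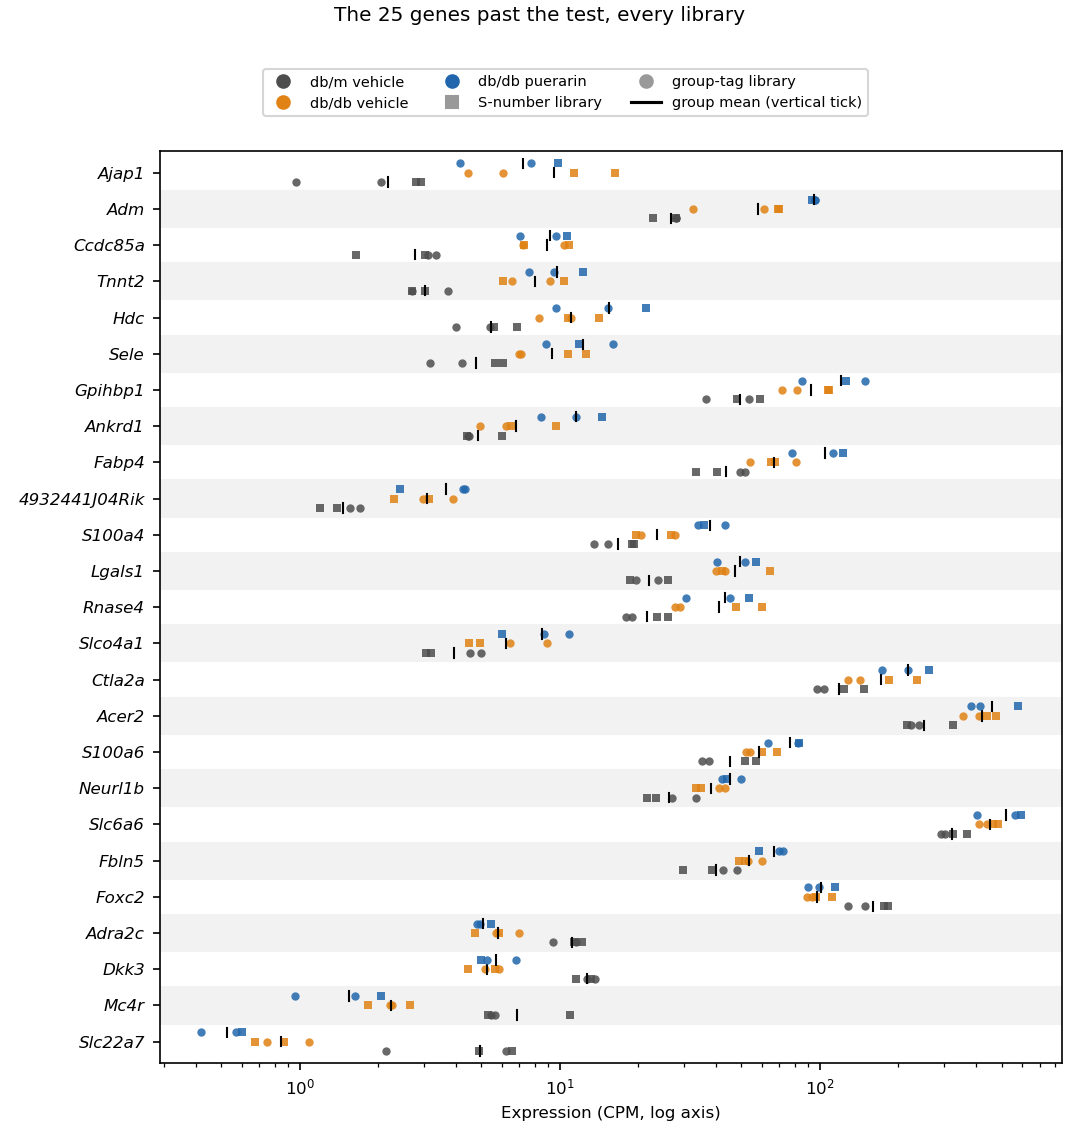
Expression of the 25 genes past the test in each of the 11 libraries, in CPM on a log axis, with 1 point per library (square for an S-number title, circle for a group tag) and a vertical tick at each group mean. The puerarin-treated (blue) and db/m (grey) points do not overlap for any of the 25 genes, and the vehicle-treated db/db points (orange) are shown for reference.

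Adm encodes adrenomedullin, a vasodilator peptide that acts through the receptor Calcrl with a Ramp partner. Its 300-base promoter window (RefSeq, GRCm38.p6, 250 bases before to 50 after the start site, plus strand, chr7:110627407-110627706) is shown because Adm had the smallest p of all genes.
Adm: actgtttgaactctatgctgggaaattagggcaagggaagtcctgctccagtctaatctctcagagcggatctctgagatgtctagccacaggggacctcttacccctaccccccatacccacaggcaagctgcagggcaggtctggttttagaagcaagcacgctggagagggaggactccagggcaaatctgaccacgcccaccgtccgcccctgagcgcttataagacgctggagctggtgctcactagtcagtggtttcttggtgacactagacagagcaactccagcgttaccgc
Adm measured 93.2, 95.5 and 96.2 CPM in puerarin S144, 2 and 3 and 22.8, 28, 28 and 27.9 CPM in db/m S184, S185, 2 and 3. All 3 puerarin libraries lay within a narrow range above every db/m library. Adm averaged 94.9 ± 1.57 CPM (SD, n = 3) and 26.7 ± 2.59 CPM (SD, n = 4) (log2 fold change 1.85, SE 0.22, edgeR adjusted p 0.042). For Adm the difference was 1.88 log2 units among S-number and 1.78 among group-tag libraries. The vehicle-treated db/db libraries had 69.5, 69, 32.6 and 61 CPM, with vehicle 1 near the db/m level.

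Of the receptor components, Ramp3 measured 89.8, 59.2 and 63.5 CPM with puerarin and 37.8, 45.7, 34.9 and 45.2 CPM in db/m. These groups did not overlap, but the log2 fold change of 0.81 did not pass (adjusted p 0.0693 by edgeR). Calcrl and Ramp2 had log2 fold changes of -0.07 and 0.40 (adjusted p 0.967 and 0.558 by edgeR). The angiogenic list had 24 measured members: Adm passed, 8 were higher and 1 lower at an unadjusted p under 0.05, and the median log2 fold change was 0.11, against -0.01 for all genes. Over all genes, 5.37% were higher and 4.89% lower at that p. The endothelin genes Edn1 and Ednrb, a vasoconstrictor peptide and its endothelial receptor, had log2 fold changes of 0.70 and 1.09 without passing (adjusted p 0.121 and 0.0678 by edgeR), and the second receptor, Ednra, had -0.05 (adjusted p 0.978 by edgeR).

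Gpihbp1, on the capillary endothelium, carries lipoprotein lipase to the vessel lumen. Levels of Gpihbp1 were 126, 149 and 85.2 CPM in puerarin S144, 2 and 3, against 47.9, 58.8, 36.7 and 53.3 CPM in db/m S184, S185, 2 and 3. Every puerarin library was above the highest db/m library, S185. For Gpihbp1 the group means were 120.2 ± 32.4 CPM (SD, n = 3) and 49.2 ± 9.45 CPM (SD, n = 4) (log2 fold change 1.35, SE 0.20, edgeR adjusted p 0.0451). Gpihbp1 differed by 1.25 log2 units in the S-number and 1.35 in the group-tag libraries. Fabp4 is a fatty acid-binding protein of capillary endothelium, adipocytes and macrophages. Fabp4 reached 123, 113 and 78.3 CPM in puerarin S144, 2 and 3, and 33.5, 40.2, 49.2 and 51.8 CPM in db/m S184, S185, 2 and 3. Puerarin 3 was the lowest of the treated libraries and still lay above all db/m libraries. Means were 105 ± 23.3 CPM (SD, n = 3) and 43.7 ± 8.43 CPM (SD, n = 4) for Fabp4 (log2 fold change 1.26, SE 0.20, edgeR adjusted p 0.0455). The difference in Fabp4 was 1.74 log2 units among the S-number libraries and 0.89 among group-tag libraries. Lpl, the lipase that Gpihbp1 binds, had a log2 fold change of 0.03, and the fatty acid transporter Cd36 had -0.29. Neither passed (adjusted p 0.978 and 0.786 by edgeR).

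Gpihbp1 and Fabp4 were the called members of the glomerular endothelial list, of which 30 of 30 genes were measured. At an unadjusted p under 0.05, 9 members were higher and 0 lower, against 5.37% and 4.89% of all genes. The median over the list was 0.07, with 18 members higher and 12 lower. Ehd3 and Igfbp5 were among the lower, with log2 fold changes of -0.47 and -0.41 (adjusted p 0.598 and 0.722 by edgeR). The mean level of the list ran from -0.06 to 0.38 in the puerarin libraries and from -0.38 to 0.15 in db/m, on a log2 scale relative to all 11 libraries, and the groups overlapped. Sost, a secreted Wnt antagonist, was a further member, with 63.4, 98.5 and 84.5 CPM in the puerarin libraries and 21.9, 18.4, 24.4 and 33.2 CPM in db/m. Its groups were apart, and its log2 fold change of 1.68 did not pass (adjusted p 0.0722 by edgeR). Fewer cells of a type and less RNA per cell cannot be told apart in these bulk samples.

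Sele encodes E-selectin, which activated endothelium displays to leukocytes. In puerarin S144, 2 and 3, Sele measured 11.9, 16.1 and 8.83 CPM, and in db/m S184, S185, 2 and 3 it measured 5.64, 6.03, 3.16 and 4.2 CPM. The treated libraries were all higher than the controls, with puerarin 2 the highest. Sele averaged 12.3 ± 3.63 CPM (SD, n = 3) and 4.76 ± 1.32 CPM (SD, n = 4) (log2 fold change 1.51, SE 0.24, edgeR adjusted p 0.0455). For Sele the difference was 1.02 log2 units among S-number and 1.69 among group-tag libraries. Icam1, another leukocyte adhesion molecule, had a log2 fold change of 0.73 (adjusted p 0.18 by edgeR). In the inflammation and adhesion list, 17 of 22 measured members were higher and 5 lower, and 47.7% of all genes were higher. At an unadjusted p under 0.05, 5 were higher and 0 lower, against 5.37% and 4.89% of all genes. Groups were apart for 5 higher and 0 lower members, against 3.73% and 3.92% of all genes. Sele alone passed, against 0.146% of all genes called higher, and the list median was 0.29. Among the S-number libraries that median was -0.04 and among group-tag libraries 0.51. The 26 myeloid markers summed to 260.0 to 399.1 CPM with puerarin and 160.0 to 412.5 CPM in db/m, and within the name forms their median differed in sign (-0.31 and 0.93). Their part in the adhesion result was not tested.

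Ctla2a encodes a cysteine protease inhibitor. Ctla2a measured 264, 219 and 174 CPM in puerarin S144, 2 and 3 and 124, 148, 97.6 and 104 CPM in db/m S184, S185, 2 and 3. The lowest puerarin library, 3, was above the highest db/m library, S185. For Ctla2a the group means were 219 ± 44.7 CPM (SD, n = 3) and 118 ± 23 CPM (SD, n = 4) (log2 fold change 0.97, SE 0.12, edgeR adjusted p 0.042). Ctla2a differed by 0.96 log2 units in the S-number and 0.96 in the group-tag libraries. Its close paralog Ctla2b had a log2 fold change of 0.29 (adjusted p 0.551 by edgeR), and how reads were divided between the pair cannot be read from the sources used here, which leaves Ctla2a uncertain. Rnase4, a secreted ribonuclease, overlaps Ang on chromosome 14 and is uncertain for that reason. Levels of Rnase4 were 53.5, 45.2 and 30.5 CPM in puerarin S144, 2 and 3, against 23.6, 26, 17.9 and 19 CPM in db/m S184, S185, 2 and 3. Means were 43.1 ± 11.6 CPM (SD, n = 3) and 21.6 ± 3.82 CPM (SD, n = 4) for Rnase4 (log2 fold change 1.09, SE 0.16, edgeR adjusted p 0.0451). The difference in Rnase4 was 1.11 log2 units among the S-number libraries and 1.01 among group-tag libraries. The groups were apart, and Ang had a log2 fold change of 0.80 (adjusted p 0.353 by edgeR).

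S100a4 and S100a6 encode small calcium-binding proteins, and their genes are neighbours on chromosome 3, with 6849 bases between them. The promoter window of S100a6 (RefSeq, GRCm38.p6, plus strand, chr3:90612644-90612943) is shown because it was the one among 15 higher genes with a promoter sequence that held the E-box CACGTG (in capitals), which begins 15 bases into the transcribed part.
S100a6: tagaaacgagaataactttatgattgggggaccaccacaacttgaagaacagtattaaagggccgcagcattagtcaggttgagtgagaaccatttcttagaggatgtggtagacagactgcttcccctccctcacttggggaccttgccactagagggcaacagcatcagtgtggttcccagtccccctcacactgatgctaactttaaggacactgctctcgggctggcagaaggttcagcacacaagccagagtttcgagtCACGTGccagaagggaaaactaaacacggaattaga
S100a4 reached 35.9, 43.2 and 34.1 CPM in puerarin S144, 2 and 3, and 19, 19.3, 15.3 and 13.5 CPM in db/m S184, S185, 2 and 3. S100a4 averaged 37.7 ± 4.81 CPM (SD, n = 3) and 16.8 ± 2.82 CPM (SD, n = 4) (log2 fold change 1.19, SE 0.17, edgeR adjusted p 0.0451). Treated and control values were clearly apart for S100a4, and db/m S185 was the highest control. In puerarin S144, 2 and 3, S100a6 measured 83.5, 82.8 and 63.5 CPM, and in db/m S184, S185, 2 and 3 it measured 51.7, 56.8, 37.6 and 35.1 CPM. For S100a6 the group means were 76.6 ± 11.3 CPM (SD, n = 3) and 45.3 ± 10.6 CPM (SD, n = 4) (log2 fold change 0.84, SE 0.12, edgeR adjusted p 0.0451). For S100a6 the gap between the groups was narrower, with puerarin 3 next to db/m S185. The differences were 0.9 and 0.62 among the S-number libraries, and among group-tag libraries 1.41 and 1.0. Among other S100 genes on chromosome 3, S100a8 and S100a9 had log2 fold changes of 1.35 and 0.99 at lower levels. S100a11 had 0.30 and S100a10 0.07. None of them passed (adjusted p 0.381, 0.545, 0.279 and 0.931 by edgeR).

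Lgals1 encodes galectin-1, a secreted lectin that binds beta-galactosides. Lgals1 measured 56.7, 51.4 and 40.2 CPM in puerarin S144, 2 and 3 and 26.1, 18.6, 19.6 and 24 CPM in db/m S184, S185, 2 and 3. All treated libraries exceeded the controls. Means were 49.5 ± 8.43 CPM (SD, n = 3) and 22.1 ± 3.54 CPM (SD, n = 4) for Lgals1 (log2 fold change 1.19, SE 0.18, edgeR adjusted p 0.0451). For Lgals1 the difference was 1.36 log2 units among S-number and 1.07 among group-tag libraries.

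Tnnt2 encodes the troponin T of heart muscle. Levels of Tnnt2 were 12.2, 7.62 and 9.5 CPM in puerarin S144, 2 and 3, against 3.02, 2.71, 2.69 and 3.71 CPM in db/m S184, S185, 2 and 3. The highest db/m value, in library 3, was under the lowest treated value. Tnnt2 averaged 9.79 ± 2.33 CPM (SD, n = 3) and 3.03 ± 0.473 CPM (SD, n = 4) (log2 fold change 1.70, SE 0.24, edgeR adjusted p 0.0451). Tnnt2 differed by 2.08 log2 units in the S-number and 1.42 in the group-tag libraries. Ankrd1 encodes a muscle ankyrin repeat protein and is a well-known target of YAP. Ankrd1 reached 14.5, 11.6 and 8.46 CPM in puerarin S144, 2 and 3, and 4.39, 6.01, 4.49 and 4.45 CPM in db/m S184, S185, 2 and 3. Puerarin S144 was highest and puerarin 3 lowest among the treated libraries, and db/m S185 was the highest control. For Ankrd1 the group means were 11.5 ± 3.04 CPM (SD, n = 3) and 4.84 ± 0.783 CPM (SD, n = 4) (log2 fold change 1.30, SE 0.19, edgeR adjusted p 0.0451). The difference in Ankrd1 was 1.49 log2 units among the S-number libraries and 1.14 among group-tag libraries.

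In the actin and contractile list, 22 of 29 measured members were higher and 7 lower, and none passed the test. At an unadjusted p under 0.05, 12 were higher and 0 lower, against 5.37% and 4.89% of all genes. The list median was 0.18. The tropomyosin gene Tpm1 measured 1447, 1386 and 1444 CPM with puerarin and 707, 917, 1046 and 975 CPM in db/m, groups that did not overlap. Its log2 fold change was 0.64 (adjusted p 0.0752 by edgeR), that of the actin crosslinker Flnc 0.61 and that of the myosin light chain Myl9 0.64 (adjusted p 0.0551 and 0.137 by edgeR). Summed over the list, the treated libraries had 16810 to 17260 CPM and the db/m libraries 13830 to 15300 CPM. The list level, which weights its members equally, overlapped: it was 0.04, 0.20 and 0.27 in puerarin S144, 2 and 3 and -0.30, -0.17, 0.03 and 0.10 in db/m S184, S185, 2 and 3. Acta2, the smooth muscle actin that also marks arterioles, illustrates the name forms: it had 81.8, 245 and 309 CPM with puerarin and 61, 60.2, 208 and 195 CPM in db/m, low in the S-number and high in the group-tag libraries of both groups. Its log2 fold change was 0.45 (adjusted p 0.156 by edgeR), 0.43 among the S-number and 0.45 among group-tag libraries. The mesangial and smooth muscle list, which shares Acta2, Tpm2, Tagln and Myl9, had a median of 0.02, with 11 of 21 measured members higher and 10 lower.

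Fbln5 encodes fibulin-5, which is needed to assemble elastic fibres. Its promoter window (RefSeq, GRCm38.p6, minus strand, chr12:101819070-101819369) is shown because it holds TGACG (in capitals), the core of the cyclic AMP response element, starting 9 bases before the start site.
Fbln5: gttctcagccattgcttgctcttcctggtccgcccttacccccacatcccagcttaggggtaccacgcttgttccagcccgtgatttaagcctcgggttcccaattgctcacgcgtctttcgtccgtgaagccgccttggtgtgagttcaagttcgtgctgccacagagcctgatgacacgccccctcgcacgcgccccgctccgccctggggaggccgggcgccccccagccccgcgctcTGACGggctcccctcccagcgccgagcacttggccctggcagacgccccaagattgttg
In puerarin S144, 2 and 3, Fbln5 measured 58.2, 72.2 and 69.7 CPM, and in db/m S184, S185, 2 and 3 it measured 29.9, 38.5, 48.1 and 42.5 CPM. The lowest treated library, S144, lay above the highest control, db/m 2. Means were 66.7 ± 7.47 CPM (SD, n = 3) and 39.8 ± 7.68 CPM (SD, n = 4) for Fbln5 (log2 fold change 0.71, SE 0.11, edgeR adjusted p 0.0454). For Fbln5 the difference was 0.78 log2 units among S-number and 0.65 among group-tag libraries. Elastin itself, Eln, had a log2 fold change of 0.85 and Col8a1, a collagen of vessel walls, of 0.91, and neither passed (adjusted p 0.0902 and 0.121 by edgeR). Of 40 measured extracellular matrix genes, 25 were higher and 15 lower, and the median was 0.05. None passed, with 7 higher and 4 lower at an unadjusted p under 0.05, against 5.37% and 4.89% of all genes.

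The complete cyclic AMP response element TGACGTCA, searched on both strands of the 300-base windows, was in 0 of 15 higher genes and 0 of 1 lower gene with a promoter sequence, and in 3.02% of 10615 measured genes. The core TGACG, which the complete element contains, was in 3 of 15 (Ajap1, Ctla2a and Fbln5) and in 30.8% of the measured genes. CACGTG was in S100a6 and in the lower gene Adra2c, and in 10.1% of the measured genes. Over all 27025 promoters of the table, the shares were 1.88%, 21% and 7.24%. A match is a description of letters and not a site of binding.

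Hdc encodes histidine decarboxylase, the enzyme that makes histamine. Hdc measured 21.5, 15.3 and 9.71 CPM in puerarin S144, 2 and 3 and 5.59, 6.85, 4 and 5.37 CPM in db/m S184, S185, 2 and 3. Treated values spread widely, and the lowest, in puerarin 3, was above the highest control. Hdc averaged 15.5 ± 5.9 CPM (SD, n = 3) and 5.45 ± 1.17 CPM (SD, n = 4) (log2 fold change 1.56, SE 0.21, edgeR adjusted p 0.0451). Hdc differed by 1.79 log2 units in the S-number and 1.39 in the group-tag libraries.

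Acer2, the alkaline ceramidase of the Golgi, was among the more abundant called genes. Levels of Acer2 were 581, 414 and 381 CPM in puerarin S144, 2 and 3, against 216, 326, 242 and 225 CPM in db/m S184, S185, 2 and 3. The groups were apart, with S144 the highest of the treated and S185 the highest of the control libraries. For Acer2 the group means were 459 ± 107 CPM (SD, n = 3) and 252 ± 50.3 CPM (SD, n = 4) (log2 fold change 0.9, SE 0.14, edgeR adjusted p 0.0454). Slc6a6 is the taurine transporter. Slc6a6 reached 594, 563 and 401 CPM in puerarin S144, 2 and 3, and 326, 369, 302 and 293 CPM in db/m S184, S185, 2 and 3. Means were 519.6 ± 104 CPM (SD, n = 3) and 322 ± 34.1 CPM (SD, n = 4) for Slc6a6 (log2 fold change 0.72, SE 0.11, edgeR adjusted p 0.0455). Puerarin 3 came closest to db/m S185. Slco4a1 encodes an organic anion transporter that also carries thyroid hormone. In puerarin S144, 2 and 3, Slco4a1 measured 6, 10.9 and 8.72 CPM, and in db/m S184, S185, 2 and 3 it measured 3.05, 3.21, 4.96 and 4.53 CPM. Slco4a1 averaged 8.53 ± 2.45 CPM (SD, n = 3) and 3.94 ± 0.953 CPM (SD, n = 4) (log2 fold change 1.0, SE 0.15, edgeR adjusted p 0.0454). Here the lowest treated library was S144, and both S-number controls were lowest of all. Within the S-number libraries, log2 differences were 1.13 for Acer2, 0.78 for Slc6a6 and 0.93 for Slco4a1, and among group-tag libraries they were 0.77, 0.68 and 1.031.

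Neurl1b encodes an E3 ubiquitin ligase that acts on Notch ligands. Neurl1b measured 43.9, 42.1 and 49.7 CPM in puerarin S144, 2 and 3 and 21.7, 23.5, 27 and 33.4 CPM in db/m S184, S185, 2 and 3. For Neurl1b the group means were 45.2 ± 3.94 CPM (SD, n = 3) and 26.4 ± 5.18 CPM (SD, n = 4) (log2 fold change 0.75, SE 0.11, edgeR adjusted p 0.0451). All treated values were above the highest control, db/m 3. Ccdc85a encodes a coiled-coil protein, and it measured 10.7, 9.72 and 7.04 CPM in puerarin S144, 2 and 3 and 1.65, 3.03, 3.33 and 3.11 CPM in db/m S184, S185, 2 and 3. Means were 9.15 ± 1.9 CPM (SD, n = 3) and 2.78 ± 0.764 CPM (SD, n = 4) for Ccdc85a (log2 fold change 1.72, SE 0.27, edgeR adjusted p 0.0455). Treated libraries were apart from the controls, and the differences within the name forms were 2.23 and 1.35. Ajap1 encodes a membrane protein of adherens junctions. Ajap1 reached 9.83, 7.76 and 4.13 CPM in puerarin S144, 2 and 3, and 2.79, 2.94, 2.05 and 0.97 CPM in db/m S184, S185, 2 and 3. Ajap1 averaged 7.24 ± 2.89 CPM (SD, n = 3) and 2.19 ± 0.9 CPM (SD, n = 4) (log2 fold change 1.94, SE 0.30, edgeR adjusted p 0.0455). The vehicle-treated db/db libraries reached 11.4, 16.3, 6.04 and 4.46 CPM, and 2 of them were above every puerarin library. The transcript 4932441J04Rik overlaps Pcdh7 and is uncertain, since the strand used in counting cannot be read from the sources used here. The same limit holds for Adm, Lgals1, Sele, Slc22a7 and Slc6a6, which overlap the RefSeq genes Gm28863, Gm30368, Gm51665, Gm36541 and Gm44981. In puerarin S144, 2 and 3, 4932441J04Rik measured 2.44, 4.33 and 4.23 CPM, and in db/m S184, S185, 2 and 3 it measured 1.4, 1.2, 1.7 and 1.57 CPM. For 4932441J04Rik the group means were 3.67 ± 1.07 CPM (SD, n = 3) and 1.47 ± 0.219 CPM (SD, n = 4) (log2 fold change 1.22, SE 0.19, edgeR adjusted p 0.0455). The groups did not overlap, while Pcdh7, a protocadherin, had a log2 fold change of 1.65 (adjusted p 0.147 by edgeR). Within the S-number libraries Neurl1b, Ajap1 and 4932441J04Rik differed by 0.96, 1.76 and 0.89 log2 units, and within the group-tag libraries by 0.60, 1.96 and 1.36.

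**Figure D2:**
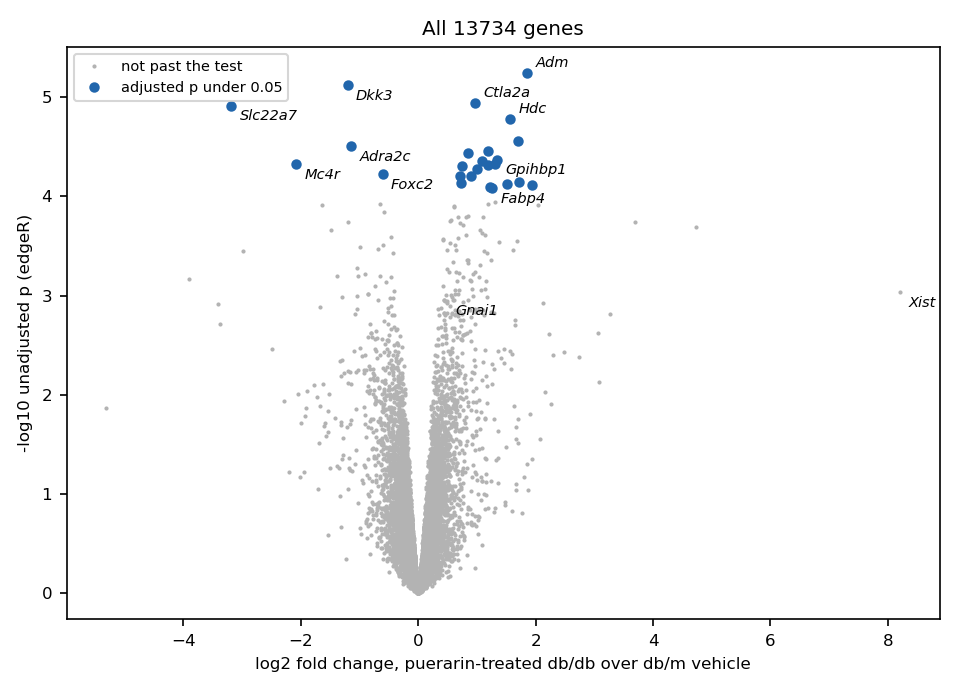
Log2 fold change of puerarin-treated db/db over db/m vehicle (x axis) against -log10 of the unadjusted edgeR p (y axis) for the 13734 genes, with the 25 genes past an adjusted p of 0.05 in blue. Slc22a7 has the most negative value of the called genes (-3.19), and Xist, at 8.21, is far to the right without passing.

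Of the genes that fell, Dkk3 encodes a secreted protein of the Dickkopf family of Wnt modulators. Dkk3 measured 4.99, 6.77 and 5.24 CPM in puerarin S144, 2 and 3 and 13.2, 11.5, 12.7 and 13.7 CPM in db/m S184, S185, 2 and 3. Every treated library was under every control, by a wide gap. Means were 5.67 ± 0.964 CPM (SD, n = 3) and 12.8 ± 0.922 CPM (SD, n = 4) for Dkk3 (log2 fold change -1.20, SE 0.14, edgeR adjusted p 0.042). The difference in Dkk3 was -1.30 log2 units among the S-number libraries and -1.14 among group-tag libraries. The vehicle-treated db/db libraries had 4.44, 5.63, 5.17 and 5.84 CPM, and their log2 fold change against the same db/m libraries was -1.28 (adjusted p 0.0232 by edgeR). Among the 17 measured Wnt ligands and modulators, Dkk3 alone passed, and the median was -0.14. At an unadjusted p under 0.05, 2 were higher and 4 lower, against 5.37% and 4.89% of all genes. Wnt4, a ligand of kidney development, had 2.46, 5.13 and 3.09 CPM with puerarin and 9.75, 12.3, 8.84 and 7.71 CPM in db/m. The 2 groups did not overlap, and the log2 fold change of -1.38 did not pass (adjusted p 0.103 by edgeR).

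Foxc2 is a forkhead transcription factor of podocytes. Levels of Foxc2 were 114, 99 and 89.8 CPM in puerarin S144, 2 and 3, against 177, 183.5, 149.9 and 128 CPM in db/m S184, S185, 2 and 3. The highest treated library, S144, was under the lowest control, db/m 3. Foxc2 averaged 101 ± 12.3 CPM (SD, n = 3) and 159.7 ± 25.4 CPM (SD, n = 4) (log2 fold change -0.61, SE 0.09, edgeR adjusted p 0.0454). For Foxc2 the difference was -0.66 log2 units among S-number and -0.56 among group-tag libraries. Its relative Foxc1 had 89.3, 91.8 and 71.1 CPM with puerarin and 118, 132, 118 and 124 CPM in db/m, also apart, with a log2 fold change of -0.52 (adjusted p 0.184 by edgeR). Foxc2 was the called member of the podocyte list, of which all 39 genes were measured: 16 were higher and 23 lower, with a median of -0.05. At an unadjusted p under 0.05, 2 were higher and 6 lower, against 5.37% and 4.89% of all genes. The slit diaphragm gene Nphs1 had a log2 fold change of 0.13, the transcription factor gene Wt1 -0.28 and the actin-associated Synpo -0.14, with edgeR adjusted p-values of 0.805, 0.504 and 0.766.

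Adra2c encodes an alpha-2 adrenoceptor, which couples to inhibitory G proteins. Adra2c reached 5.42, 4.79 and 4.93 CPM in puerarin S144, 2 and 3, and 11.3, 12.2, 11.5 and 9.43 CPM in db/m S184, S185, 2 and 3. Treated and control values were far apart. For Adra2c the group means were 5.05 ± 0.333 CPM (SD, n = 3) and 11.1 ± 1.19 CPM (SD, n = 4) (log2 fold change -1.14, SE 0.16, edgeR adjusted p 0.0451). Adra2c differed by -1.11 log2 units in the S-number and -1.09 in the group-tag libraries. Mc4r, the melanocortin 4 receptor gene, is best known for appetite control in the hypothalamus and couples to stimulatory G proteins. In puerarin S144, 2 and 3, Mc4r measured 2.05, 0.963 and 1.64 CPM, and in db/m S184, S185, 2 and 3 it measured 5.28, 11, 5.63 and 5.45 CPM. All treated values were under the controls, and db/m S185 stood above the other controls. Means were 1.55 ± 0.546 CPM (SD, n = 3) and 6.83 ± 2.76 CPM (SD, n = 4) for Mc4r (log2 fold change -2.08, SE 0.31, edgeR adjusted p 0.0451). The difference in Mc4r was -1.87 log2 units among the S-number libraries and -2.10 among group-tag libraries.

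Slc22a7 encodes OAT2, an organic anion transporter of the proximal tubule and liver. Slc22a7 measured 0.597, 0.567 and 0.415 CPM in puerarin S144, 2 and 3 and 6.55, 4.88, 2.15 and 6.19 CPM in db/m S184, S185, 2 and 3. Treated libraries were all under 1 CPM, and db/m 2 was the lowest control. Slc22a7 averaged 0.526 ± 0.0974 CPM (SD, n = 3) and 4.94 ± 2 CPM (SD, n = 4) (log2 fold change -3.19, SE 0.40, edgeR adjusted p 0.042). For Slc22a7 the difference was -3.14 log2 units among S-number and -2.79 among group-tag libraries. The proximal tubule list, of which Slc22a7 is a member, had 12 of 27 genes higher and 15 lower, with a median of -0.15, -1.13 among the S-number and 0.63 among group-tag libraries. At an unadjusted p under 0.05, 0 were higher and 7 lower, against 5.37% and 4.89% of all genes.

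Several of those 7 are known in mouse kidney for higher expression in males, and they are named here after their values were seen. Kap, the kidney androgen-regulated protein gene, had 237, 56.7 and 22.7 CPM with puerarin and 3031, 1150.2, 318 and 506 CPM in db/m. Slco1a1, an organic anion transporter gene, had 0.758, 0.595 and 0.571 CPM and 22.8, 13.1, 4.2 and 3.78 CPM. Slc7a13, an amino acid transporter gene, had 9.38, 5.47 and 1.19 CPM and 103, 40.4, 21.6 and 29.6 CPM. All 3 genes were lower in every puerarin library than in every db/m library, and they were named with that separation known. Their log2 fold changes of -3.39, -3.91 and -2.99 did not pass (adjusted p 0.156, 0.106 and 0.076 by edgeR). Of the 27 list members, 4 were apart in the lower direction. Cyp4b1, another of the 7, overlapped, with 239, 141 and 135 CPM against 543, 398, 218 and 318 CPM. Its log2 fold change was -0.996 (adjusted p 0.0748 by edgeR). Vehicle-treated db/db libraries had 115 to 653 CPM of Kap, 1.07 to 4.21 of Slco1a1 and 11.03 to 31.0 of Slc7a13. These ranges overlapped those of db/m. The proximal tubule genes Slc34a1 and Lrp2, a phosphate transporter and the endocytic receptor megalin, had log2 fold changes of -0.15 and 0.13 (adjusted p 0.978 and 0.982 by edgeR). The part of the Xist and Y-linked values of puerarin 2 and 3 in these differences was not tested.

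**Figure D3:**
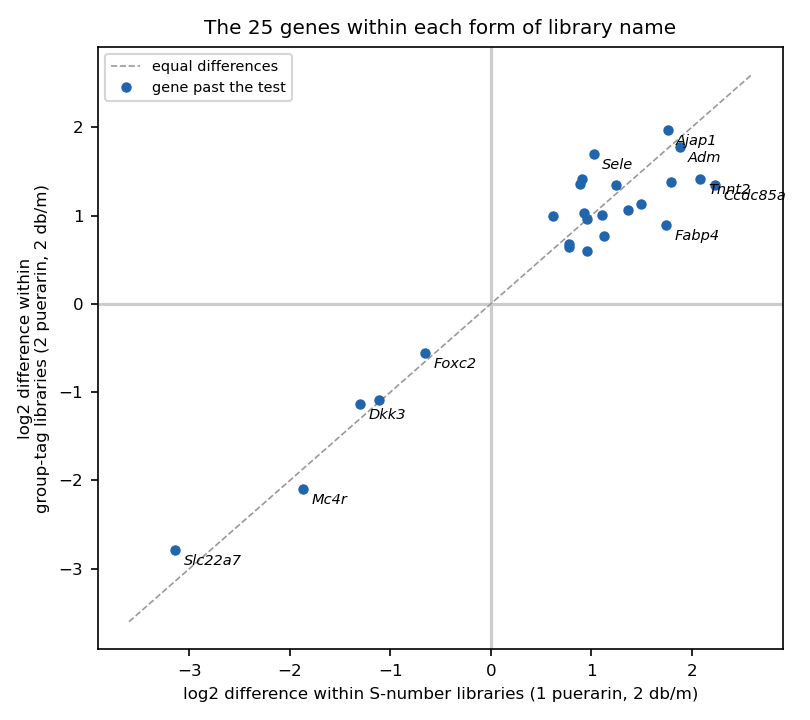
Difference in log2 CPM between puerarin-treated db/db and db/m libraries, shown for the 25 genes past the test among the S-number libraries (x axis, 1 against 2) and among group-tag libraries (y axis, 2 against 2), with a dashed line of equality. Every gene has the same sign on both axes, from -3.14 and -2.79 for Slc22a7 to 2.23 and 1.35 for Ccdc85a. That sign follows from groups that do not overlap.

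The next genes in the lower direction did not pass. Kcnj12, an inward rectifier potassium channel gene, had 40, 33.5 and 36.9 CPM with puerarin and 53.8, 60.1, 60 and 58.7 CPM in db/m (log2 fold change -0.65, edgeR adjusted p 0.0551). Aebp1, a collagen-binding protein gene, had 392, 398 and 356 CPM and 655, 611, 545 and 519 CPM (log2 fold change -0.59, edgeR adjusted p 0.0595). In both, the groups did not overlap. Cndp2, a cytosolic dipeptidase gene, Cacna2d2, a calcium channel subunit gene, and Gm853 had log2 fold changes of -1.63, -1.20 and -1.49 (adjusted p 0.0551, 0.0608 and 0.0656 by edgeR).

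The inhibitory G protein and cyclic AMP list bears on the series' title. Gnai1 measured 91.4, 65.8 and 58.2 CPM in the puerarin libraries and 51.2, 57.3, 48.1 and 52.8 CPM in db/m. All 3 treated libraries were above all 4 controls, by little in the case of puerarin 3. The log2 fold change of 0.49 (SE 0.11) did not pass (adjusted p 0.126 by edgeR). An exact two-sided permutation test of Gnai1 alone, on a difference of 0.43 in log2 CPM, gave p = 0.0571, the smallest that the 35 arrangements of 3 and 4 libraries allow. The related genes Gnai2 and Gnai3 had log2 fold changes of -0.04 and 0.13 (adjusted p 0.973 and 0.722 by edgeR). Of the 35 measured members, 19 were higher and 16 lower, and the median was 0.06. None passed, with 5 higher and 4 lower at an unadjusted p under 0.05, against 5.37% and 4.89% of all genes.

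Among 17 measured CREB factors and targets, 10 were higher and 7 lower, and the median was 0.06. None passed, with 2 higher and 1 lower at an unadjusted p under 0.05, against 5.37% and 4.89% of all genes. Crem, a cyclic AMP-responsive transcription factor gene, had 109.6, 109.9 and 113 CPM with puerarin and 74.8, 80.6, 82.6 and 73.1 CPM in db/m. Its groups did not overlap, and its log2 fold change of 0.54 did not pass (adjusted p 0.136 by edgeR). Lepr, which carries the db allele, had 9.81, 5.07 and 7.04 CPM and 9.62, 11.3, 8.32 and 9.25 CPM, values that overlapped. Its log2 fold change was -0.35 (adjusted p 0.557 by edgeR), and the exact two-sided permutation p was 0.229. The db allele alters splicing of the receptor, and a summed count does not show it.

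Several lists leaned one way without a called member. Cytosolic ribosomal protein genes had 32 higher and 9 lower, immediate early genes 13 and 5, and glucocorticoid response genes 10 and 5. Their medians were 0.11, 0.27 and 0.28. For reference, 47.7% of all genes had a higher fitted value, and 5.37% were higher and 4.89% lower at an unadjusted p under 0.05. Of 23 measured cell cycle genes, 19 were higher and 4 lower, with 7 higher and 0 lower at an unadjusted p under 0.05 and a median of 0.25. Cdk1, the mitotic kinase gene, had 3.49, 2.89 and 2.78 CPM with puerarin and 0.812, 0.836, 0.247 and 0.97 CPM in db/m, apart but low in level (log2 fold change 2.13, edgeR adjusted p 0.13). The list level, which weights members equally, lay between 0.07 and 0.23 in the treated libraries and between -0.35 and -0.14 in db/m. Summed over the list, values overlapped, at 809.3 to 935.6 CPM with puerarin and 742.9 to 875.8 CPM in db/m. Groups were apart for 6 higher members and 1 lower, against 3.73% and 3.92% of all genes. The lower one, E2f1, had 84.95, 85.9 and 66.2 CPM and 95.9, 104.7, 100.3 and 98.1 CPM (log2 fold change -0.32, edgeR adjusted p 0.504). Of 20 measured p53 and cell cycle arrest genes, 15 were higher and 5 lower, with 4 higher and 2 lower at an unadjusted p under 0.05 and list levels of 0.07 to 0.09 and -0.14 to -0.08. Summed over the p53 list, values overlapped, at 2087 to 2456 CPM with puerarin and 1865 to 2353 CPM in db/m. The groups were apart for 2 higher and 2 lower members of this list, against 3.73% and 3.92% of all genes. Trp53, the p53 gene itself, was one of the lower, with 29, 27.3 and 28.2 CPM with puerarin and 37.8, 40.8, 31 and 34.3 CPM in db/m (log2 fold change -0.32, edgeR adjusted p 0.274). The other was the sestrin gene Sesn1, with a log2 fold change of -0.38 (adjusted p 0.397 by edgeR). Cdkn2b, a cell cycle inhibitor gene, had 2.85, 1.5 and 1.61 CPM and 0.914, 1.04, 0.617 and 0.771 CPM (log2 fold change 1.30, edgeR adjusted p 0.0551).

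Of 25 measured sterol and lipid synthesis genes, 4 were higher and 21 lower, with a median of -0.20. At an unadjusted p under 0.05, 0 were higher and 6 lower, against 5.37% and 4.89% of all genes. Srebf2, the main transcription factor gene of cholesterol synthesis, had 63, 66.5 and 67.6 CPM with puerarin and 78.7, 84.3, 75 and 80.4 CPM in db/m. The groups were apart for Srebf2, with a log2 fold change of -0.28 (adjusted p 0.246 by edgeR), and Dhcr7, the last enzyme of one branch of cholesterol synthesis, had -0.39 (adjusted p 0.242 by edgeR). Summed over the list, the treated libraries had 1527 to 1627 CPM and the db/m libraries 1779 to 1951 CPM. With members weighted equally the list levels overlapped, at -0.25, 0.02 and -0.09 with puerarin and 0.24, 0.12, -0.03 and 0.06 in db/m. The median was -0.37 among the S-number and -0.05 among group-tag libraries.

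Of 38 measured oxidative phosphorylation genes, 18 were higher and 20 lower, with a median of -0.02 and no member at an unadjusted p under 0.05. Fatty acid oxidation had 17 members higher and 16 lower, and its median was 0.02. Cyp4a14, a fatty acid hydroxylase gene with near-identical relatives and therefore uncertain, had 10.2, 35.4 and 21.8 CPM and 1.65, 1.56, 1.75 and 1.59 CPM (log2 fold change 3.69, edgeR adjusted p 0.0608). Nox4, the renal NADPH oxidase gene, had 95.9, 122 and 128 CPM and 249, 76.9, 48.3 and 54.1 CPM, which overlapped, and Sirt1, a deacetylase gene, had a log2 fold change of -0.06 (adjusted p 0.881 and 0.926 by edgeR).

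C1qa, C1qb and C1qc, complement genes that macrophages express, were highest in puerarin 3 among the treated libraries. C1qb, for example, had 4.04, 2.29 and 15.6 CPM with puerarin and 1.83, 1.27, 1.01 and 1.34 CPM in db/m. Its log2 fold change of 1.88 had an edgeR adjusted p of 0.59, and in the vehicle-treated db/db libraries it ranged from 3.63 to 116 CPM.

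**Figure D4:**
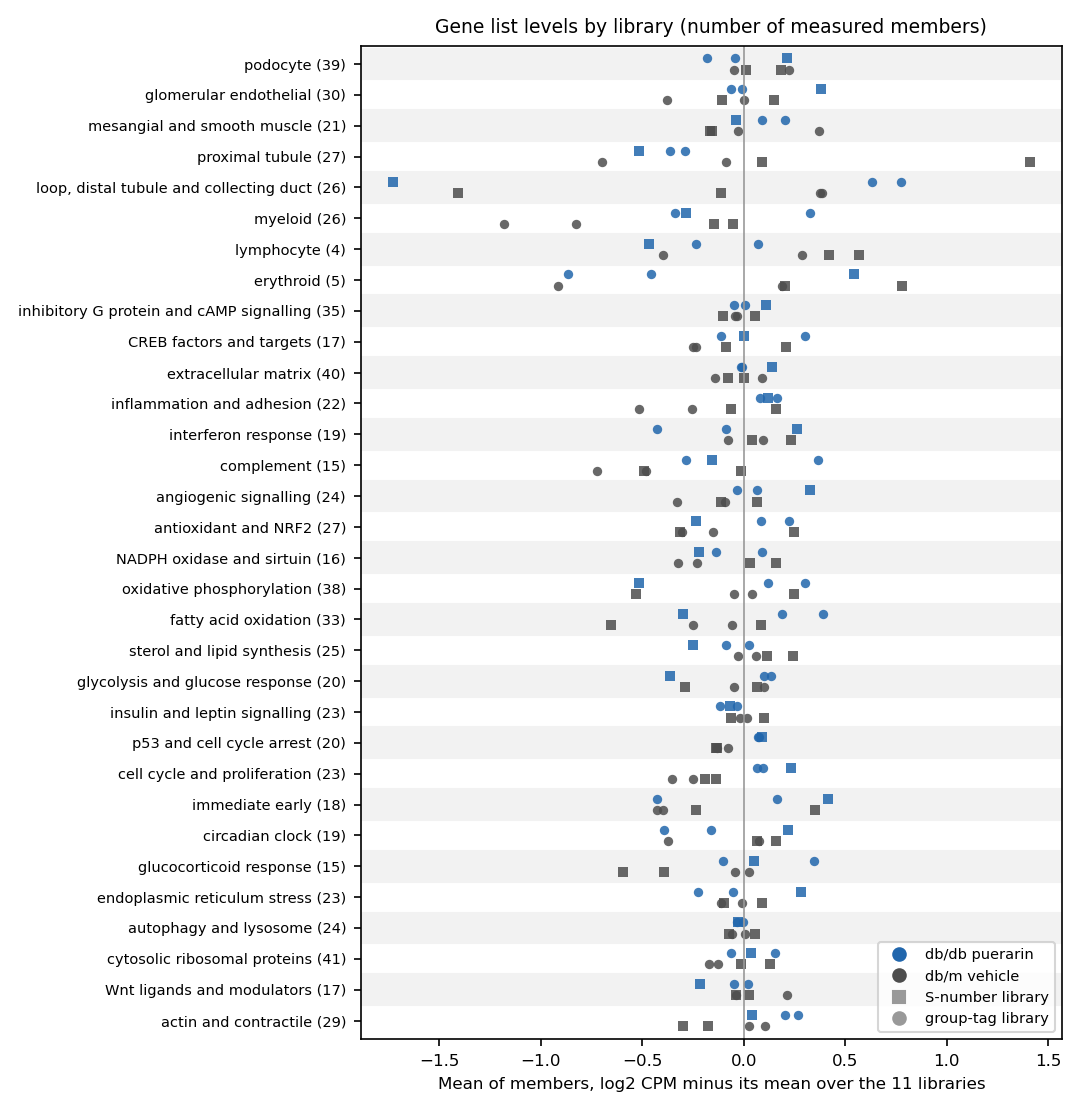
Level of each of the 32 gene lists in the 3 puerarin-treated (blue) and 4 db/m (grey) libraries, as the average log2 CPM of its members after centring each member on the 11 libraries. The treated points are apart from the db/m points for the cell cycle and p53 lists alone of the 32, and 7.65% of single genes were apart. The proximal tubule points spread widely in db/m (-0.70 to 1.41) and less with puerarin (-0.52 to -0.29). Squares are S-number and circles group-tag libraries.

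The vehicle-treated db/db libraries share their fit with both compared groups, so the following values stand side by side and are not independent. Against the same db/m libraries, vehicle-treated db/db had 6 genes past the test (0.0437%), and Dkk3, Slc22a7 and Foxc2 passed in both comparisons. For Adm the log2 fold change was 1.85 with puerarin and 1.10 with vehicle, for Gpihbp1 1.35 and 0.9, and for Fabp4 1.26 and 0.61. For Foxc2 it was -0.61 and -0.70. All 25 called genes had the same sign with vehicle, and in 19 of the 20 higher genes the fitted vehicle value lay between the other 2 groups. Among the lower genes it lay between them for Adra2c, Mc4r and Slc22a7 and beyond puerarin for Dkk3 and Foxc2. The genes were chosen for their difference between puerarin and db/m, and the db/m libraries are shared. Shared calls, shared signs and values in between are therefore partly set by that choice and are not a result. Puerarin against vehicle within db/db had 0 genes past the edgeR test, with a smallest adjusted p of 0.526 (578 had an unadjusted p under 0.05), so no difference between treated and untreated db/db mice is shown for these genes.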

How the data were processed

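RNA of isolated mouse glomeruli was treated with DNase, and samples with an RNA integrity above a limit were sequenced, per the labels' protocols, which name 2 sequencing sites but do not tie any library to one. The strain field gives C57BL/6J and the treatment protocol the BKS background. BWA, limma and the build mm10 are named in the submitters' processing notes. The rule for counting reads on transcripts and the use of strand are not stated in the sources used here. The authors deposited whole-number counts for 22320 transcripts in 15 columns, of which 4 matched no sample, so 8 columns of sample values were left out. The log2 values that the authors deposited equal log2 counts plus a constant per library and were used only for that check.

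Counts were summed to 13734 genes (13 blank cells set to 0, 50 symbols turned into dates restored). Of these, 4562 had several transcripts, and in 75.1% of them the top pair agreed within 10%, so shared reads can count more than once. edgeR 4.0.16 in R 4.3.3 (glmQLFit, glmQLFTest, TMM) was fitted to all 11 libraries with group and name form, with 7 residual degrees of freedom. The low-count filter (1 read in 3 libraries) dropped no gene. All p-values were two-sided, with Benjamini-Hochberg adjustment over all genes. Differences within a name form are of mean log2 CPM with a prior count of 2. A fold change by SE comes from the fitted value and its F statistic. No 2 libraries of a group agreed within sampling noise (smallest chi-square per degree of freedom 19.4). The p-values rest on the spread among these samples only, part of which may be technical. Tested on simulated data for this comparison (13734 genes, 200 changed), the fit found 17.9%, 67.2% and 87.9% of genes changed 1.5-, 2- and 3-fold, with 4 false among 119 calls. The simulated counts were independent between genes and held no differences by name form, tubule content or sex. These shares may therefore not hold for the real libraries.

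The genes named were up to 15 called per direction by p (places filled to 10), 2 members per direction of each of 32 lists, and a set of genes tied to the study. Slc6a6, Ajap1, 4932441J04Rik and partner genes such as Ramp2, Lpl, Kap, Slco1a1, Slc7a13, Sost and Cdk1 were added after their values were seen. Some genes that the rule takes are not reported here. The comparison, members and lists were chosen with earlier results of these data known. limma 3.58.1 and DESeq2 1.42.0 served as alternatives among 26, of which 3 were chosen after seeing the data.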

Additional observations from a re-analysis of the deposited data

Results flagged for a closer look

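In the 4 db/m libraries, 11 of 202 sets of values (5.45%) had 1 library far from the other 3 relative to the range. Chance gives about 1 in 20 such sets. Among called genes, Adm was low in db/m S184 at 22.8 CPM (others 27.93 to 28.04), Ankrd1 was high in S185 at 6.01 CPM (others 4.392 to 4.495), and Mc4r was high in S185 at 10.96 CPM (others 5.281 to 5.631). In each, that library did not bring the groups into overlap. Gm853, which did not pass, was low in db/m 2 at 2.667 CPM.

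Other genes set apart by S185 were Atp6v1g3, a proton pump subunit of intercalated cells, low at 6.824 CPM, the metallothionein gene Mt1, low at 40.13 CPM, and Nr4a3, high at 4.248 CPM. In S184, Nox4 was high at 248.9 CPM (others 48.26 to 76.87) and Socs3 at 48.72 CPM. Nphs1 was high in db/m 2 at 1500 CPM, and the p53 and cell cycle arrest list was high in db/m 3, at a level of -0.076 (others -0.137 to -0.130).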

How the results depend on the processing

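Leaving out 1 library gave 0 to 73 called genes in place of 25, with the values by library given beside the main count. Of the 25 genes, the fit without vehicle 1 shared 25 and that without vehicle 3 shared 24. The fits without puerarin 3, db/m 2 and puerarin S144 shared 2, 1 and 0 of them. DESeq2's own test called 285 genes and shared 25, limma-voom called 0 (1410 at an unadjusted p under 0.05, smallest adjusted p 0.0524). A fit of only the 7 compared libraries called 5 (1 shared), and 5 passed without the name form term (5 shared). A term for the tubule level gave 473 (25 shared). No gene passed without the 2 group-tag puerarin libraries (895 at an unadjusted p under 0.05). Of 3 settings chosen after seeing the data, the fit without the 2 S-number db/m libraries called 0 (1073 unadjusted). The 6 group-tag libraries alone called 0 (873 unadjusted). The 5 S-number libraries alone hold 1 puerarin library, and calls from that fit are not counted here. Counts of calls here leave out chromosomes X and Y, on which 12 more genes passed in DESeq2's test, 14 with the tubule term, 1 with the replicate block (Tmsb4x) and 1 in the 6 group-tag libraries (Kdm5d). With a replicate block, 48 genes passed (19 shared). The labels tie only numbers 2 and 3 across the groups, and the deviations of same-numbered puerarin and db/m libraries had r = 0.0563, the same for both numbers since each pair's deviations mirror each other. With vehicle 3, r was -0.11 for puerarin 3 and 0.0519 for db/m 3. The numbers are not known to pair samples. The cause of these shifts was not tested. DESeq2 size factors gave 24, the highest transcript per gene 20 and the count filters 25, since they removed no gene. All 25 genes kept their direction in all 26 alternatives, which reuse the libraries that the genes were chosen from, so this is no separate support. With plain library totals the Gnai1 and Lepr permutation p-values stayed at 0.0571 and 0.229.

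The log2 fold change changed sign under some setting for 32 of 170 named genes (88 values), none past the threshold in either fit. Leaving out 1 library, the values ran from -0.197 to 0.065 for Calcrl, -0.304 to 0.022 for Echs1, -0.2295 to 0.092 for Ednra, -0.127 to 0.0775 for Gnai2, -0.168 to 0.293 for Hbb-bt, -0.105 to 0.148 for Lpl, -0.244 to 0.654 for Lrp2 and -0.547 to 0.0428 for Ms4a1. They ran from -0.2795 to 0.062 for Per1, -0.1801 to 0.0151 for Rplp2, -0.0481 to 0.227 for S100a10, -0.2999 to 0.0136 for Sdf2l1, -0.157 to 0.0073 for Sirt1, -0.446 to 0.3196 for Slc34a1 and -0.3099 to 0.0508 for Zfp36. Without the name form term, they were -0.0884 for Hbb-bt and -0.0665 for Lrp2. With the 5 S-number libraries alone, they were -0.809 for Atp6v1g3, 0.0337 for Calcrl, 0.0515 for Dbp, 0.279 for Ednra, -0.526 for Elovl6, 0.157 for Gnai2, -1.18 for Lrp2, -0.157 for Ndufb3, -0.148 for Ndufv2, -0.752 for Nox4, 0.196 for Sdf2l1, 0.0989 for Sirt1, -0.162 for Slc13a3, 0.0278 for Slc25a37 and 0.0486 for Synpo. With the 6 group-tag libraries alone, they were 0.0571 for Echs1, -0.0493 for Hbb-bt, -0.0514 for Ifit1, -0.198 for Lpl, 0.0747 for Ms4a1, -0.0354 for Nphs1, 0.0388 for Rplp2, -0.0111 for S100a10, -0.0691 for Sirt2, 0.5895 for Slc34a1 and 0.0513 for Zfp36. With the tubule level as a term, they were -0.0682 for Hbb-bt, -0.0468 for Lpl and 0.359 for Slc34a1. Without the 2 S-number db/m libraries, they were 0.0767 for Cd36, -0.148 for Lpl, -0.0063 for Nphs1, 0.038 for Per1, 0.0033 for Rplp2, -0.0302 for Sirt2, 0.442 for Slc34a1 and 0.0053 for Zfp36. Without the 2 group-tag puerarin libraries, they were -0.863 for Atp6v1g3, 0.102 for Cd14, -0.029 for Cldn16, 0.113 for Dbp, 0.254 for Ednra, -0.5197 for Elovl6, 0.116 for Gnai2, 0.127 for Hbb-bs, -0.843 for Lrp2, -0.109 for Ndufb3, -0.162 for Ndufv2, 0.0049 for Nfkb1, -0.546 for Nox4, 0.0524 for Sdf2l1, 0.106 for Sirt1, -0.115 for Slc13a3 and 0.0141 for Slc25a37.

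These libraries cannot settle small differences: in simulation most genes changed 1.5-fold were missed.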
